A study of Mus musculus with 12 samples.

Results

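The AP-1 family genes described here were Fos, Fosb, Fosl2, Jun, Junb, Jund, Atf3, Atf4, Batf3 and Jdp2, and their members in the data were the ChIP-seq peaks that the deposited peak tables assign to 1 of these 10 gene names. Of 26706 Rpb2 peaks, 49 carried such a name, and of 55862 H3K27ac peaks, 73 did, which makes 122 of 82568 peaks in both tables. Each of the 10 genes had at least 1 peak of either kind. Rpb2 is the second largest subunit of RNA polymerase II, so its ChIP signal marks where the polymerase sits. H3K27ac is acetylation of lysine 27 on histone H3, a mark of active promoters and enhancers.

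The libraries came from CD11b+CD45lo microglia, the resident macrophages of the brain, sorted from C57BL/6J mice at 2 months of age. Wild-type mice (Cx3cr1+/+, WT) were compared with Cx3cr1-KO mice (Cx3cr1 eGFP/eGFP), in which an eGFP gene disrupts both copies of the fractalkine receptor gene, so KO microglia carry eGFP, and the receptor is missing throughout the animal and not from microglia alone. Each library was a pool of cells from 3 mice of 1 sex, and by its labels each mark had 1 female and 1 male pool per genotype (n = 2 pools against 2). With 2 pools a side an exact permutation test cannot go below p = 0.333, so the tests below come from fits across all peaks or genes, and their p-values measure the spread between these pools. A fit that leaves 1 pool in a genotype takes its spread from the pools of the other genotype alone. Its p-values therefore do not measure the spread within the genotype left with 1 pool.

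AP-1 is a dimer of basic leucine zipper proteins. Fos proteins do not pair with themselves and need a Jun partner, whereas Jun proteins can pair with each other, and the ATF, BATF and JDP proteins join either or bind related sites. Many of these genes are immediate-early genes, which are switched on within minutes of a signal, and tissue dissociation before a sort can induce several of them in microglia. Here the brains were dissociated in the cold, and the cells for ChIP were fixed after staining, before the sort. Whether these genes were induced by the preparation was not tested. In macrophages, AP-1 dimers work beside the lineage factor PU.1 at enhancers.

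Total reads per library ranged from 11662185 to 44332626 for Rpb2, with 11.2% to 15.1% of reads in peaks, and from 10395804 to 21134403 for H3K27ac. In 3 of the H3K27ac libraries 61.1% to 65.3% of the reads fell in peaks, but only 15.9% did in the WT female library, so H3K27ac values that leaving it out moves by over 1.5 times, or across the threshold, are also given without it. The Rpb2 library labelled WT female held 136 reads in 3 peaks of Y-linked genes, of 11662185 in total. The WT and KO male libraries held 214 of 13653287 and 266 of 16528108, and the KO female library 0 of 44332626. Its label is therefore in doubt, its genotype is not checked by this, and the main Rpb2 results are given without it as well. All 12 microglial markers had an Rpb2 peak (summed signal 11317 to 12102 RPM, reads per 1000000 reads in peaks), while 0 of 5 neuronal, 0 of 4 astrocyte, 0 of 5 monocyte and neutrophil and 0 of 3 lymphocyte markers had one. For oligodendrocytes, 2 of 5 markers had an Rpb2 peak (128 to 163 RPM), and for endothelium 2 of 3 did (50.9 to 86.2). For H3K27ac the 12 microglial markers summed to 5014 to 8647 RPM, 4 of 5 oligodendrocyte markers to 309 to 380, 3 of 3 endothelial markers to 190 to 260, 2 of 5 monocyte and neutrophil markers to 38.1 to 82, 3 of 5 neuronal markers to 17.8 to 56.7, 2 of 3 lymphocyte markers to 18.4 to 26.6 and 1 of 4 astrocyte markers to 0 to 7.83. Cx3cr1, the disrupted gene, kept signal in KO, at 2759 and 2351 RPM in WT and 2124 and 1893 in KO for Rpb2, over 25 peaks named for it, whose place relative to the eGFP insertion was not determined here, so they do not check the genotype. The part of other cell types in the results was not tested. The libraries sum over all cells of a pool, so a change in how many cells carry a signal and a change in the signal per cell cannot be told apart.

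The promoters of 3 members and 1 distal Rpb2 peak are printed because the comparisons below turn on them. All sequences run 5′ to 3′ on build GRCm38, the build of the peak tables, which name it mm10. The promoters are from RefSeq, on the strand of the gene, and span 250 bases before to 50 bases after the annotated start. Capitals mark the letters of TGACG, a short site that AP-1, ATF and CREB proteins share, and of TATAAA, the TATA box, each searched on both strands. Fos (chr12:85473640-85473939, plus strand) encodes the founding Fos protein, and Fosb (chr7:19309996-19310295, minus strand) and Junb (chr8:84978699-84978998, minus strand) encode further Fos and Jun proteins.
Fos promoter: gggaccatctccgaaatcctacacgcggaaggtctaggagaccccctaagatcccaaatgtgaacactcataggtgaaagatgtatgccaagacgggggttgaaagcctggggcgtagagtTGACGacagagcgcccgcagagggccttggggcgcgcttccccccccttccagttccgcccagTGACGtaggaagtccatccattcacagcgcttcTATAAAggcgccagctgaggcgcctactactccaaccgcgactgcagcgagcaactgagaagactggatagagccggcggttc
Fosb promoter: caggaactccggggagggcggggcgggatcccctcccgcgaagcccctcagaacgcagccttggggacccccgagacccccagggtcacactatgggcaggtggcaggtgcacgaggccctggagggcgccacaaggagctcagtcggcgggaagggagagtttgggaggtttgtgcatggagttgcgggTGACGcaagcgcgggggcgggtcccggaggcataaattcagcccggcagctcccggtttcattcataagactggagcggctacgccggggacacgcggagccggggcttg
Junb promoter: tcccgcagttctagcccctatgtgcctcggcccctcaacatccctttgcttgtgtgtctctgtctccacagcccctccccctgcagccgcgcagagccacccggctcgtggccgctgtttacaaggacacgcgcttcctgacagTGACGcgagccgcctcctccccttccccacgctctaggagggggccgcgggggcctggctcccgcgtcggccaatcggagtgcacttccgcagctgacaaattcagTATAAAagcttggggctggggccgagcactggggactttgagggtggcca
The distal Jun peak (the central 300 bases, chr4:95161429-95161728, plus strand) lay at -109357 bp from the Jun start, negative distances lying upstream.
Jun distal peak: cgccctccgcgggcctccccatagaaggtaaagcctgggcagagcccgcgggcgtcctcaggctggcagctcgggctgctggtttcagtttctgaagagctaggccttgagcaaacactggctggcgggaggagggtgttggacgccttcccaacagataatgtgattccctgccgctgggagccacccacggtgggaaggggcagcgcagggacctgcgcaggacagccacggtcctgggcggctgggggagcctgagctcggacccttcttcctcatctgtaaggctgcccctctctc

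The Fos window held TGACG at 2 places, 129 to 125 and 66 to 62 bases before the start, and TATAAA 33 to 28 bases before it. Fosb held 1 TGACG, 60 to 56 bases before its RefSeq start. In Junb the TATAAA began at the RefSeq start itself, and lay 30 to 25 bases before the GENCODE start, which is 30 bases further on. Junb also held a TGACG, 106 to 102 bases before the RefSeq start. The Rpb2 peak of Jund with the lowest p (chr8:70698841-70699083), described below, held 1 TGACG, on the minus strand and 97 to 93 bases before the GENCODE start, and the printed stretch of the distal Jun peak held none of the motifs searched. Over all 32841 RefSeq promoters of the same length, 20.8% held TGACG and 13.6% held TATAAA. The full palindromes TGANTCA and TGACGTCA stood in 7.81% and 1.79% of all promoters and in 0 of the 12 promoter windows of the members (3 of them for Jdp2), and the CArG box, the binding site of serum response factor, stood in 1.63% and in 0 of the 12. Sites further from the start lie outside these windows.

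The same motifs were counted in the Rpb2 peaks. TATAAA stood in 4 of the 16 member peaks within 1000 bp of a start (25%), against 4.3% of all 10124 such peaks. The 4 were the peaks at the starts of Fos, Fosb and Junb and the Atf4 peak at 344 bp. The printed Fosb promoter held 0 TATAAA, so the matches in the Fosb peak lay downstream of the RefSeq start. The Atf4 peak lay wholly downstream of its RefSeq start. In Fosb and Atf4 the matches are therefore not TATA boxes of those starts. Both percentages count the motif wherever it stood in a peak. TGANTCA stood in 3 of 33 member peaks further away (9.09%), against 8.56% of 16578. The 3 were at Batf3 (-4850 bp), Fos (59356 bp) and Junb (-2553 bp).

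At the promoters, the 3 Jun genes stood at the top of the Rpb2 order and Batf3 at the bottom. Levels were compared at the peak nearest each start, in RPM per kb of peak. Junb was at 1717 and 2392 in the WT female and male pools and at 2201 and 2550 in the KO pools. Jun was at 1677 and 1828 in WT and 1793 and 1269 in KO, and its 4 values overlapped those of Junb. Among all peaks within 1000 bp of a start, their WT means were at percentiles 99.8 and 99.6.

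Jund, which encodes the Jun protein that most resting cells hold, followed in WT at 1139 and 1997 (percentile 99.5) and was at 691 and 589 in KO, where it overlapped Atf3. Atf3, a stress-induced repressor, came next at 446 and 411 in WT and 407 and 681 in KO (percentile 86.6). Jdp2, Fos and Atf4 had WT means of 283, 275 and 246, which is within the spread of the pools of Fos alone (175 to 386). Fosl2 was at 85.7 to 257 and Fosb at 41.5 to 263. In both genes and genotypes the pool labelled male was above the pool labelled female. The label of the WT female pool is in doubt, so this is not shown to be a difference by sex. Batf3, which encodes a partner of Jun proteins known from dendritic cells, was at 8.54 to 55.6 (percentile 9.94). Neighbours in this order from Jdp2 to Batf3 overlapped. The order depends on the peak taken for Atf4 and Fosl2, whose strongest peak within 1000 bp was another one. At 344 bp Atf4 was at 1865 and 1657 in WT and 1367 and 1534 in KO, a percentile of 99.7, and at -653 bp Fosl2 was at 378 and 307 in WT and 286 and 273 in KO. In these peaks both KO pools were lower than both WT pools (log2 fold change -0.28 and -0.29, adjusted p = 0.549 and 0.723, edgeR quasi-likelihood test with Benjamini-Hochberg adjustment).

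The H3K27ac order shared its top genes with Rpb2. Junb (30.9 to 44.9 RPM per kb, percentile 99.9) and Jun (29.6 to 42.8, percentile 99.7) led. Atf4, the effector of the integrated stress response, and Jund followed at 21.8 to 26.1 and 20.4 to 24.6, and these 2 overlapped. Fosl2 (16.1 to 21.4), Batf3 (11.9 to 18), Jdp2 (10.3 to 21.2) and Atf3 (10.8 to 18.3) overlapped one another. Fos and Fosb had the lowest WT means, 8.42 and 7.87, at percentiles 34.9 and 31.5. In both genes the 2 KO pools were higher than the 2 WT pools.

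**Figure D1:**
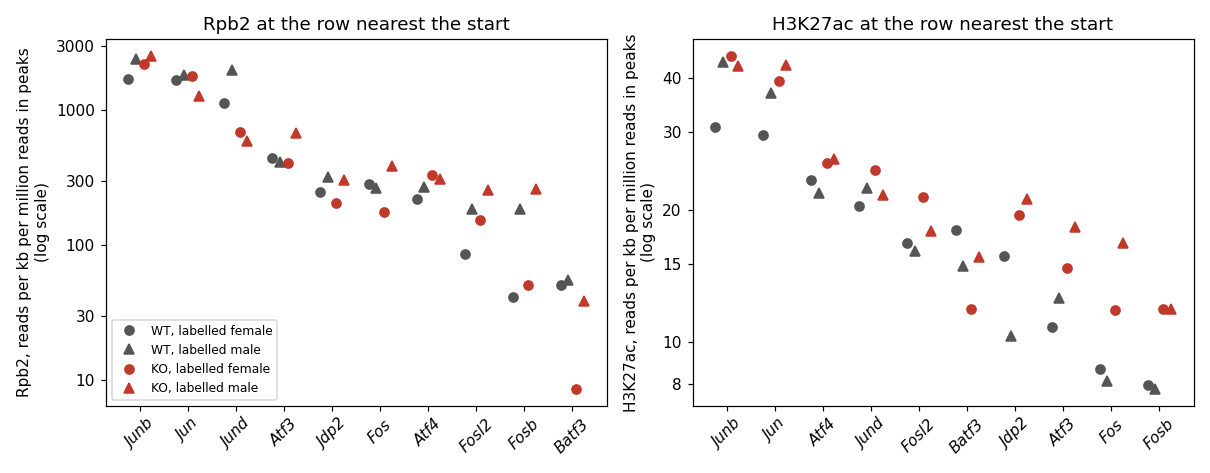
Levels of Rpb2 (left) and H3K27ac (right) at the peak nearest the start of each gene, in RPM per kb of peak on log axes, with genes ordered by the WT mean. Each point is 1 pool (grey WT, red KO, circles labelled female, triangles labelled male). Junb and Jun lead both panels, and Jund stands out on the left for WT points at 1139 and 1997 above KO points at 691 and 589.

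The members differed in how their signal was spread along the genome. Jun had 21 H3K27ac peaks, 20 of them more than 10000 bp away and reaching -251352 bp, and Fos had 13 from -36176 to 59462 bp. In contrast, Junb, Jund and Atf4 each had a single H3K27ac peak over the gene, of 13345, 7303 and 4049 bp. Batf3 had the most Rpb2 peaks (13), of which 8 lay more than 10000 bp from its start, although its promoter level was the lowest. Of the 49 Rpb2 peaks of members, 46.9% were intergenic (95% Wilson interval 33.7% to 60.6%), against 18.1% of all Rpb2 peaks, and of the 73 H3K27ac peaks 76.7% (65.8% to 84.9%) were, against 35.5% of all. An H3K27ac peak covered at least 1 bp of 45 of the 49 Rpb2 peaks of members (91.8%, 80.8% to 96.8%) and 76.6% of all Rpb2 peaks. These intervals cover counting error only and treat peaks of the same gene as independent. Batf3 alone held 13 of the 49 Rpb2 peaks and Jun 21 of the 73 H3K27ac peaks, so the shares lean on single loci. Of the H3K27ac peaks of members, 53.4% stood in both the WT and the KO peak list (37.7% of all H3K27ac peaks), 12.3% in the WT list alone (33.3% of all) and 34.2% in the KO list alone (29.1% of all).

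Each peak was named by the authors for the nearest start, and the name does not show which gene a distal peak serves. Fos and Jdp2 are neighbours on chromosome 12, as are Batf3 and Atf3 on chromosome 1. By GENCODE, 22 of the 73 H3K27ac peaks and 9 of the 49 Rpb2 peaks also overlapped another gene. All 10 Jun H3K27ac peaks from -87 to -113215 bp overlapped Junos, a non-coding gene antisense to Jun, the Fos peak at 59462 bp lay in the lincRNA gene Gm32296, and the Junb H3K27ac peak reached into Prdx2. ChIP reads carry no strand of transcription, so signal of such overlapping genes cannot be separated.

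Between genotypes, the lowest p-values for summed Rpb2 were at Jund, which was lower in Cx3cr1-KO microglia, and at Junb, which was higher. Neither passed the adjusted threshold. Reads were summed over the peaks of each gene and are given in RPM. Jund was at 496 and 646 in the WT female and male pools and at 353 and 415 in the KO pools (571 ± 106 against 384 ± 44.4, SD, n = 2). The KO pools were both under the WT pools, and the log2 fold change was -0.58 (SE 0.15). The unadjusted p was 0.00111 and the adjusted p was 0.166 (edgeR quasi-likelihood test, Benjamini-Hochberg). Without the library labelled WT female the log2 fold change was -0.78, and without the WT male library it was -0.37. Scaled by total reads the log2 fold change was -0.31 (unadjusted p = 0.216, edgeR).

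Junb, which is induced together with Fos in many cells, was at 715 and 770 in WT and at 861 and 1020 in KO (742 ± 39.1 against 940 ± 112). The KO pools were both above the WT pools (log2 fold change 0.34, SE 0.11, unadjusted p = 0.00722, adjusted p = 0.262 in edgeR). Without the library labelled WT female it was 0.26, with an adjusted p of 0.394, and without the KO male library 0.21, with an adjusted p of 0.916. The 2 genes lie on the same chromosome, in opposite strands and far apart. Their Rpb2 values went opposite ways in the pools labelled female and in those labelled male (-0.49 and -0.64 for Jund, 0.27 and 0.40 for Junb, log2 ratio of KO to WT).

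The other 8 members had unadjusted p-values of 0.19 or more. Jun was at 693, 802, 730 and 689 in the WT female, WT male, KO female and KO male pools (log2 fold change -0.07, SE 0.12). Atf4 was at 509, 465, 423 and 450 (-0.16, SE 0.14), with both KO pools below both WT pools. Jdp2, a repressor that pairs with Jun proteins, was at 99.2, 112, 68.2 and 92.8 (-0.40, SE 0.30), again with both KO pools lower.

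Fos was at 246 and 192 in WT and at 175 and 329 in KO, so the 2 KO pools enclosed both WT pools (log2 fold change 0.20, SE 0.24). Fosb was at 8.39 and 37 in WT and 10.6 and 56.1 in KO, and differed more between the pools labelled female and male than between genotypes. Atf3 (238, 220, 237 and 302), Fosl2 (139, 149, 149 and 175) and Batf3 (364, 314, 342 and 331) overlapped between genotypes.

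Of the 10 members, 0 passed an adjusted p of 0.05 for summed Rpb2, as did 0% of all 10206 genes in edgeR. The lowest adjusted p of a member was 0.166 (Jund), and 1101 of all genes had an unadjusted p under 0.05, while DESeq2 passed 28 of all genes and 0 members. At an unadjusted p under 0.05, 1 member was higher in KO (background 5.55% of all genes) and 1 was lower (background 5.24%). Both KO pools lay above both WT pools in 1 member, against 22.4% of all genes, and below them in 3 (Jund, Atf4 and Jdp2), against 19.7% of all. The median log2 fold change was 0.08 over the members and 0.02 over all genes.

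**Figure D2:**
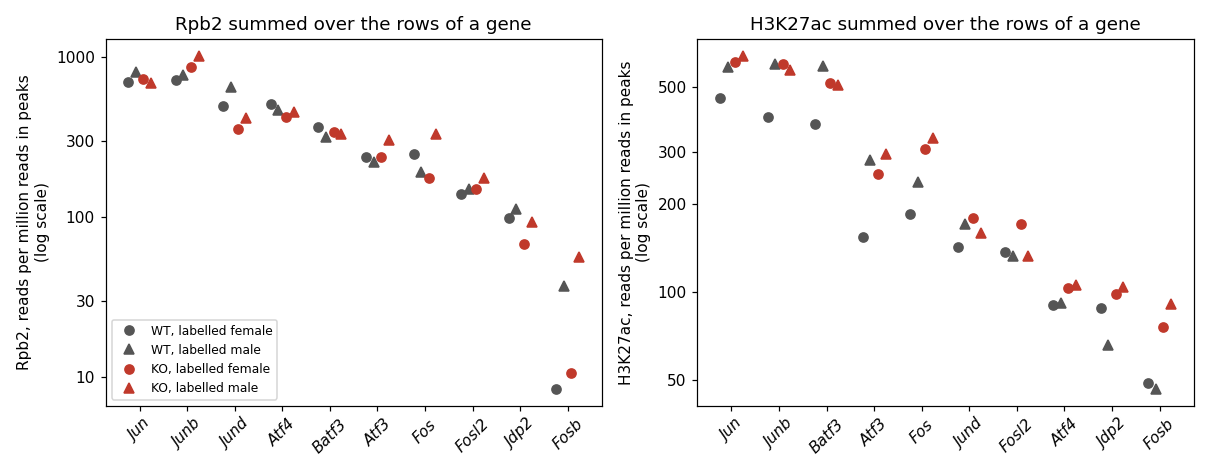
Rpb2 (left) and H3K27ac (right) summed over the peaks of each gene, in RPM on log axes, 1 point per pool (grey WT, red KO, circles labelled female, triangles labelled male). The KO points of Jund lie below its WT points on the left, and the KO points of Fos and Fosb lie above their WT points on the right.

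Peak by peak, Jund had 1 peak with an unadjusted p under 0.05. The peak at 1223 bp from the RefSeq start (chr8:70698841-70699083) spans the start of the only GENCODE transcript of Jund, at base 70698949 of chromosome 8, and is annotated by HOMER as 5′ UTR. It held 277 and 485 RPM in WT and 168 and 143 in KO (381 ± 147 against 155 ± 17.5). Here too the KO pools were both under the WT pools, by a log2 fold change of -1.29 (SE 0.25).

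The unadjusted p was 0.000261 and the adjusted p 0.198 in edgeR, and 0.00036 in DESeq2, which passed 1022 of all peaks against 2 in edgeR. Across 12 other settings the log2 fold change stayed between -1.65 and -0.83. It was -1.65 without the library labelled WT female and -0.83 without the WT male library. These fits hold no spread between WT pools, which was the larger here (SD 147 against 17.5 RPM in KO). With all 4 libraries, the adjusted p in edgeR was 0.0206 with at least 10 reads in every library and 0.016 among peaks of both lists. In the other edgeR settings with 4 libraries it was 0.0919 or more.

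The peaks further along Jund gave other values. At 2252 bp, in the exon, Rpb2 was at 155 and 113 RPM in WT and at 108 and 182 in KO, and at 2911 bp, at the transcript end, it was at 51.3 and 42.8 in WT and 51.3 and 68.3 in KO. Their log2 fold changes were 0.11 and 0.34 (unadjusted p = 0.717 and 0.37, edgeR). The genotypes overlapped at both peaks. Upstream, at -1836 bp, Rpb2 was at 22.5 and 26.3 in WT and 19.1 and 8.58 in KO (log2 ratio of KO to WT -0.80, unadjusted p = 0.227). The peak at 2252 bp also overlaps the antisense gene Gm11175.

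The share of reads in these 2 downstream peaks, out of those plus the start peak, was then computed after the values were seen and was not tested. For Jund it was 42.7% (95% Wilson interval 38.8% to 46.6%) and 24.3% (21.7% to 27.1%) in WT and 48.7% (46.4% to 51%) and 63.6% (60.6% to 66.5%) in KO, with intervals that cover counting error only. Both KO pools were above both WT pools. For Junb the same share was 43.6% and 25.3% in WT and 37.7% and 36.3% in KO, and for Jun 12.8% and 16.6% in WT and 14.8% and 30.6% in KO, so the genotypes overlapped for both. Atf4 had most of its Rpb2 downstream of the peak nearest its RefSeq start, 90.9% and 87.6% in WT and 83% and 84.8% in KO.

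At Junb, the start peak was at 355 and 495 RPM in WT and 456 and 528 in KO (log2 ratio of KO to WT 0.21). The peak at 1044 bp, in the exon, was at 110 and 57.9 in WT and 113 and 137 in KO (0.58, unadjusted p = 0.0965, edgeR). Its log2 fold change was 1.09 without the library labelled WT female. All 6 Junb peaks had a log2 fold change above 0, and 3 of 6 did without the library labelled WT female.

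**Figure D3:**
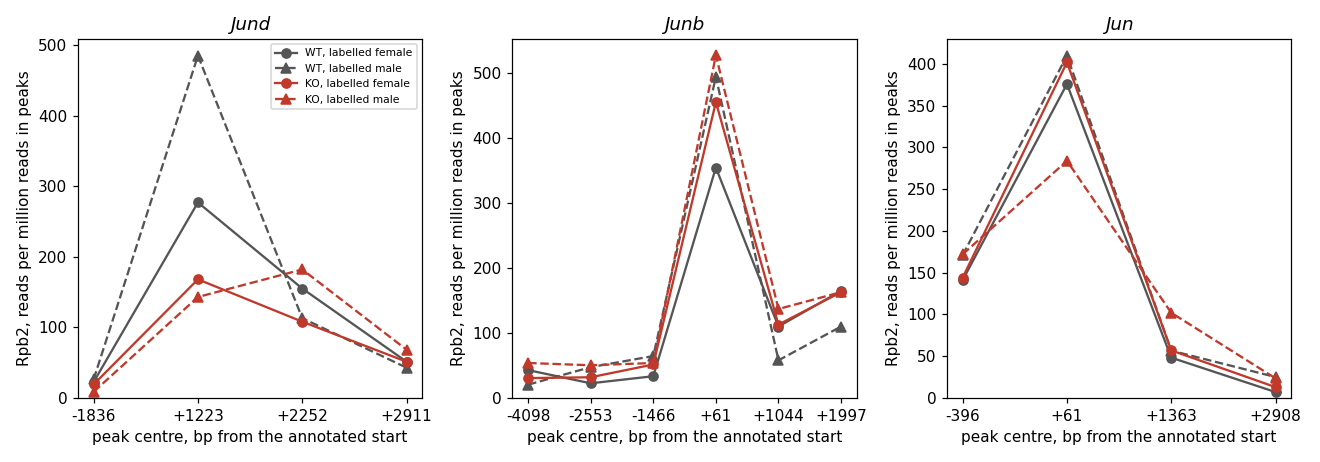
Rpb2 at each peak within 10000 bp of Jund, Junb and Jun, in RPM, against the distance of the peak centre from the annotated start in bp (peaks evenly spaced). Grey lines are WT and red lines KO, solid for pools labelled female and dashed for male. At Jund the 4 pools part at 1223 bp (277 and 485 against 168 and 143) and come together downstream, while at Jun and Junb both KO pools lie above both WT pools at 1 peak each (1363 bp, 48.2 and 56.6 against 56.9 and 102, and 1044 bp, 110 and 57.9 against 113 and 137) and the genotypes overlap at the others drawn.

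In all, 0 of 49 Rpb2 peaks of members passed an adjusted p of 0.05 in edgeR (background 0.00749% of 26706 peaks). In DESeq2 2 of 49 did, the Jund peak at 1223 bp and the distal Jun peak, against a background of 3.83%. At an unadjusted p under 0.05, 0 peaks were higher in KO (background 6.12%) and 5 were lower (10.2% of members, background 6.06%). The 5 belonged to 5 genes. Beside Jund they were the distal Jun peak, described with its acetylation below, and 3 weaker peaks. The Jund and distal Jun peaks stood in both peak lists. The 3 weaker ones stood in the WT list alone, and a peak called in 1 genotype alone is prone to a higher value there.

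The Jdp2 peak at -304 bp was at 45.1 and 42.8 RPM in WT and at 20 and 20.7 in KO (-1.11 on the log2 scale, SE 0.46, unadjusted p = 0.0325), whereas the other Jdp2 peak, at -99 bp, overlapped between genotypes. The Batf3 peak at -6238 bp was at 28.8 and 17.1 in WT and 7.46 and 1.17 in KO (-2.33, SE 0.89, unadjusted p = 0.0221). Without the KO female library this was -4.21, and without the WT male library -2.61. The Atf4 peak at -1215 bp had only 9, 17, 13 and 0 reads (log2 fold change -2.72, adjusted p = 0.401, edgeR). Its log2 fold change was -2.98 without the library labelled WT female. The nearest peaks outside that threshold were higher in KO. Fos at 12431 bp was at 2.33 and 8.56 in WT and 16.5 and 21.5 in KO (adjusted p = 0.415, edgeR). Batf3 at 16691 bp was at 14.8 and 9.88 in WT and 31.5 and 26.9 in KO (adjusted p = 0.416, edgeR). Both were chosen after their values were seen, and both stood in the KO peak list alone.

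For H3K27ac, Fosb and Fos had the largest fold changes of the summed signal among the members, both higher in Cx3cr1-KO microglia, and neither passed the adjusted threshold in edgeR with all 4 libraries. Fosb passed in DESeq2 (adjusted p = 0.0139) and Fos with loess offsets in edgeR (adjusted p = 0.0302). Fosb, a close relative of Fos, was at 49.1 and 46.6 RPM in WT and at 76.1 and 91.1 in KO over 5 peaks (47.8 ± 1.82 against 83.6 ± 10.5, SD, n = 2). KO exceeded WT by 0.81 on the log2 scale (SE 0.24, unadjusted p = 0.00393, adjusted p = 0.344, edgeR). Fos was at 185 and 238 in WT and at 308 and 335 in KO over 13 peaks (212 ± 37 against 322 ± 18.8), with a log2 fold change of 0.60 (SE 0.28, unadjusted p = 0.0444, adjusted p = 0.738).

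In the KO peak list alone stood 3 of the 5 Fosb peaks and 4 of the 13 Fos peaks, and in the WT list alone 1 of each gene. Without the weakly enriched WT female library, Fosb was at a log2 fold change of 0.85 and Fos at 0.44 (edgeR, 3 libraries). Without the WT male library instead, which leaves the weakly enriched library as the only WT pool, they were at 0.77 and 0.79. Leaving out either KO library put the adjusted p of both genes at 0.962 or more.

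Jdp2 was at 88.3 and 66.2 in WT and 98.8 and 104 in KO (log2 ratio of KO to WT 0.40, SE 0.24). Jun, at 458, 584, 609 and 640 in the WT female, WT male, KO female and KO male pools, had a log2 fold change of 0.26 (SE 0.32), and Atf4, at 90.4, 91.6, 103 and 106, one of 0.20 (SE 0.23). In these 3 genes too both KO pools lay above both WT pools. Without the WT female library Jdp2 was at 0.62 and Jun at 0.10, and without the WT male library at 0.20 and 0.45. Atf3 (154, 281, 252 and 296), Batf3 (373, 590, 516 and 506), Junb (394, 601, 598 and 572) and Jund (142, 170, 179 and 159) overlapped, with the WT female pool the lowest of the 4 in each. Fosl2 was at 137, 133, 170 and 133.

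All 10 members had a log2 fold change above 0, from 0.09 to 0.81 with a median of 0.25. The median over all 16938 genes was -0.11, and 41.7% of all genes were above 0. That background was lowered by genes with few reads. Among the 12177 genes with at least 10 reads in every library the median was -0.01. In that fit all 10 members were again above 0, with a median of 0.22. That direction rested on the WT female library for 4 of them: without it Atf3 was at -0.03, Batf3 at -0.20, Junb at -0.04 and Jund at -0.01, and the median was 0.15 against 0.04 over all genes. With loess offsets 8 of the 10 were above 0. Of the 10 members, 0 passed an adjusted p of 0.05 (background 0% of genes, 1097 with an unadjusted p under 0.05), and DESeq2 passed 1, Fosb, among 201 genes. At an unadjusted p under 0.05, 2 were higher (background 0.951%) and 0 were lower (background 5.53%). Both KO pools lay above both WT pools in 5 members, against 13.4% of all genes, and below them in 0, against 14.2%.

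**Figure D4:**
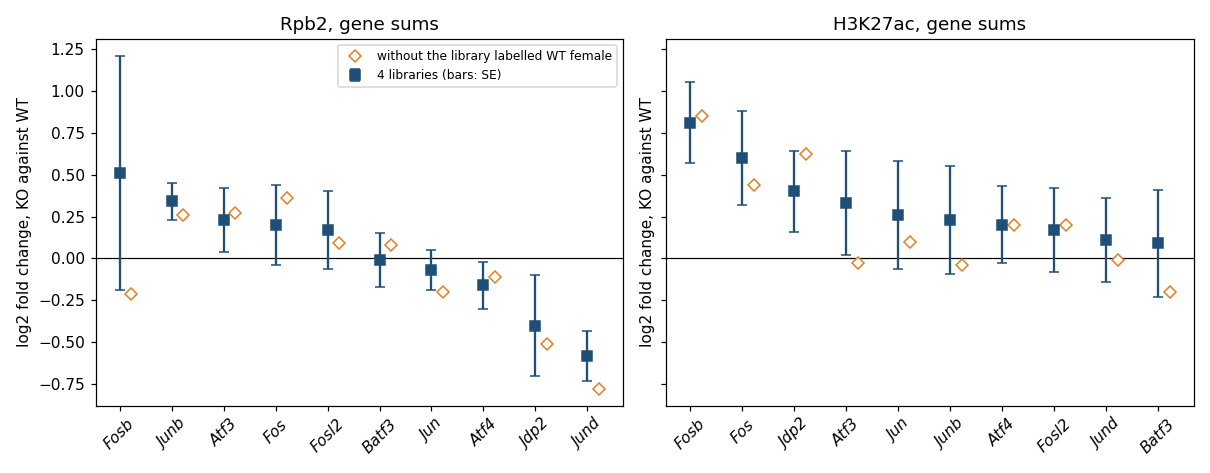
Log2 fold change of KO against WT for Rpb2 (left) and H3K27ac (right) summed over the peaks of each gene, with genes ordered by value. Squares with bars are the edgeR estimate and SE from 4 libraries, and open diamonds are the estimate without the library labelled WT female. Jund is lowest for Rpb2 at -0.58, and Fosb and Fos are highest for H3K27ac at 0.81 and 0.60. The diamonds of Atf3, Batf3, Junb and Jund fall below 0 on the right.

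Among single H3K27ac peaks, 0 of 73 passed an adjusted p of 0.05 in edgeR (background 0.0233% of 55798 peaks). In DESeq2 1 did, at Fosl2 (background 0.231%). At an unadjusted p under 0.05, 9 were higher in KO (12.3% of members, background 1.35%), and 1 was lower (1.37%, background 3.6%). The 9 belonged to Fos, Fosb, Jun and Jdp2, and in each of them both KO pools lay above both WT pools, as in 96.8% of all peaks past that threshold and higher. The adjusted p of all 9 was 0.811 in edgeR.

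At Fos, 4 peaks were among the 9. Unadjusted p-values of these 4 ran from 0.00654 to 0.0181. The promoter peak, centred at -379 bp (chr12:85472031-85474991), covers the printed Fos promoter and was at 25.7 and 24.1 RPM in WT and at 34.8 and 49.8 in KO (0.76 on the log2 scale, SE 0.32). Peaks at 12524, 15479 and 59462 bp had log2 fold changes of 0.96, 1.45 and 0.79. The peak at 15479 bp stood in the KO peak list alone. The values at 15479 and 59462 bp depended on which WT library was used. Without the WT female library they were 0.89 and 0.32, and without the WT male library 2.53 and 1.51. The peak at 12524 bp was at 0.70 and 1.32 in these fits, and the promoter peak at 0.49 without the KO male library. Downstream, the peak at 12524 bp was at 13.3 and 20.3 in WT and 37.5 and 28.6 in KO, and it overlaps the Rpb2 peak at 12431 bp given above. Of the 12 Fos peaks with at least 10 reads in every library, 10 had a log2 fold change above 0 and in 9 both KO pools were above both WT pools (background 20.4% of all peaks with as many reads). Without the WT female library all 12 were above 0, with a median of 0.56. Over all 24522 peaks with as many reads, 55.8% were above 0 with 4 libraries, and the median was 0.06. Without the WT female library 12757 of the 24522 were above 0, with a median of 0.02.

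Fosb had 2 of the 9, on either side of the gene. Both stood in the KO peak list alone, and a peak called in KO alone is prone to a higher KO value. The peak at -9104 bp (chr7:19316931-19321367) was at 21.5 and 11 in WT and 23.4 and 38.1 in KO (log2 ratio of KO to WT 0.94, SE 0.37), and it lies in the lincRNA gene D830036C21Rik. The small peak at 8777 bp was at 1.13 and 4.96 in WT and 12.7 and 11.8 in KO (1.95, SE 0.77). Without the WT female library these 2 peaks were at 1.47 and 1.30, and without the WT male library at 0.52 and 3.42. Without the KO male library the peak at -9104 bp was at 0.55. The peak over the Fosb gene itself was at 24.3 and 23.8 in WT and 36.3 and 36.4 in KO (0.60, unadjusted p = 0.0716 in edgeR), with no overlap. The Jdp2 promoter peak (chr12:85597783-85600513) was at 42.9 and 28.1 in WT and 53.1 and 58 in KO (0.65, SE 0.30), whereas Rpb2 at -304 bp of Jdp2 was lower in both KO pools. The promoter value was 0.97 without the WT female library and 0.37 without the WT male library.

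At Jun, the 2 marks went opposite ways at the distal peak printed above. Rpb2 at -109357 bp (chr4:95161428-95161730) was at 107 and 129 RPM in WT and 67.5 and 44.5 in KO (118 ± 15.9 against 56 ± 16.3), a log2 fold change of -1.06 (SE 0.31, unadjusted p = 0.00485, adjusted p = 0.223, edgeR). The H3K27ac peak around it, at -109254 bp, was at 59.6 and 50.5 in WT and 93.9 and 70.7 in KO (0.58, SE 0.29, unadjusted p = 0.0464). A neighbouring H3K27ac peak at -104677 bp was at 12.7 and 15 in WT and 22 and 26.7 in KO (0.81, SE 0.40). WT and KO pools stood apart in all 3 peaks. Without the library labelled WT female, the Rpb2 value was -1.21 and the H3K27ac value at -109254 bp was 0.70. Without the WT male library they were -0.91 and 0.46, and without the KO male library -0.80 and 0.78. Without the KO female library the H3K27ac value was 0.36. In DESeq2 with all 4 libraries the adjusted p was 0.0224 for Rpb2 and 0.314 for H3K27ac. The difference between the 2 marks was not tested.

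The 1 lower peak lay upstream of Fosl2, which encodes Fra-2, at -12642 bp (chr5:32123500-32124160). It held 39 and 21 reads in the WT female and male libraries (11 and 3.36 RPM) and 0 in both KO libraries. In RPM this was at least 52.3-fold lower, against a floor of 3 reads over the KO group. This bound takes no account of the spread between the pools or of error in the WT value. Without the weakly enriched WT female library the bound in RPM was 28.7-fold, and without the WT male library 94.1-fold. Scaling to reads in peaks raises the WT female value. Out of total reads, the WT libraries held 39 of 21134403 and 21 of 10395804, and no bound was computed on that scale. The authors' peak calling found it in the WT list only. The unadjusted p was 0.000634 and the adjusted p 0.61 in edgeR, and 0.00712 in DESeq2. The peak over the Fosl2 promoter was at 92.4 and 88.6 in WT and 118 and 98.4 in KO (log2 ratio of KO to WT 0.26).

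**Figure D5:**
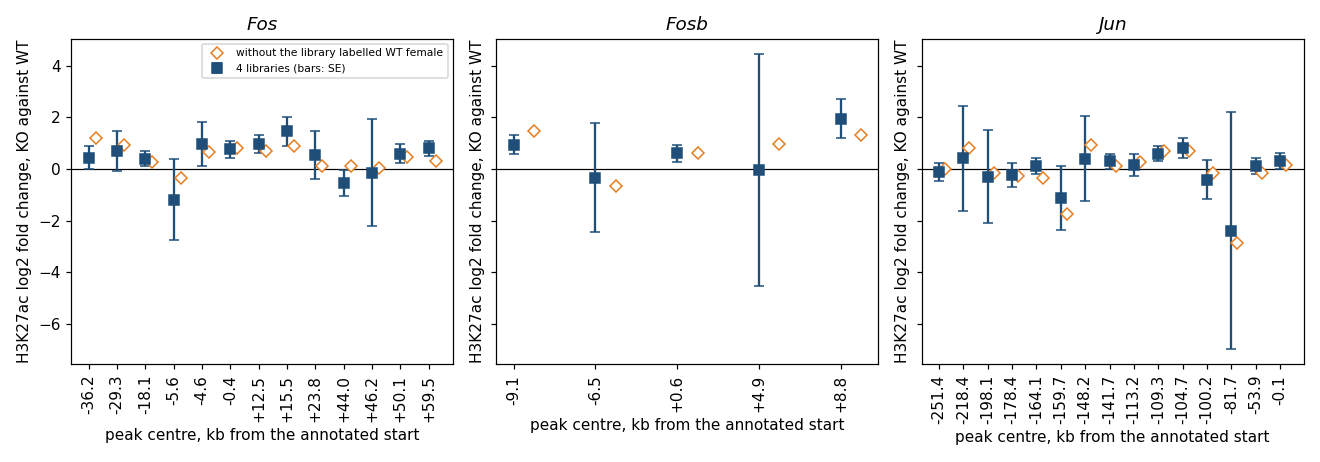
H3K27ac log2 fold change of KO against WT at each peak of Fos, Fosb and Jun with at least 4 reads in every library, ordered by the distance of the peak centre from the start in kb. Squares with bars are the edgeR estimate and SE from 4 libraries, and open diamonds leave out the library labelled WT female. Most Fos peaks lie above 0, and the Jun peaks lie on both sides of 0, with those at -109254 and -104677 bp at 0.58 and 0.81.

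The wider AP-1 pathway was read from a list of 80 genes, with summed reads per gene. For Rpb2, 69 had peaks, of which 0 passed the adjusted threshold and 5 had an unadjusted p under 0.05 with a positive and 5 with a negative log2 fold change (background 5.55% and 5.24% of all genes), with a median log2 fold change of -0.01 (0.02 over all genes). Among the kinases and phosphatases that act upstream of Fos and Jun, 4 of 18 had an unadjusted p under 0.05 with a negative log2 fold change and 0 with a positive one, against the same background, and 0 passed the adjusted threshold. Map2k3, which activates p38, was at 104 and 163 RPM in WT and 56.1 and 75 in KO (log2 ratio of KO to WT -1.03, SE 0.30). Map2k4, which activates JNK and p38, was at 29.7 and 59.9 in WT and 13 and 13.7 in KO (-1.75, SE 0.54).

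Among 15 textbook AP-1 targets, 8 had Rpb2 peaks and 2, Tnf and Il1b, had an unadjusted p under 0.05, both with higher values in KO. The background for the counts in this paragraph was 5.55% of all genes higher and 5.24% lower. The lists were chosen with earlier results of these data known, so these genes are not independent evidence on AP-1. Tnf, the cytokine, was at 102 and 101 in WT and 215 and 175 in KO (0.94, SE 0.23, adjusted p = 0.141 in edgeR). Of the immediate-early companions, 1 of 13, Klf2, had such a p, at 220 and 254 in WT and 349 and 395 in KO (0.65, SE 0.17, adjusted p = 0.158). Cebpa, a lineage factor of myeloid cells, was at 267 and 365 in WT and 191 and 206 in KO (-0.68, SE 0.19, adjusted p = 0.177). WT and KO pools stood apart in each of these 5 genes. Of 25 measured genes of other AP-1 and bZIP factors, 1 had such a p with a negative log2 fold change (Cebpa) and 1 with a positive one, and of 5 measured genes for factors that start Fos and Jun transcription 0 and 1 did. The others with an unadjusted p under 0.05, named here after their values were seen, were Il1b, Fosl1 and Mef2a, with a positive log2 fold change, and Mapk9 and Mapk14, with a negative one. Fosl1, which encodes Fra-1, had 0 reads in both WT libraries and 6.11 and 6.86 RPM in KO.

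For H3K27ac, 78 of the 80 were measured and 0 passed. An unadjusted p under 0.05 was seen in 1 (background 0.951% of all genes higher and 5.53% lower). This was Egr2, an immediate-early zinc finger gene, at 60.5 and 64 in WT and 78.6 and 102 in KO (0.54, SE 0.24, adjusted p = 0.714 in edgeR). The other 4 lists had 0 genes with such a p in either direction. Over the 14 immediate-early companions, 13 had a log2 fold change above 0, with a median of 0.25. The median was -0.11 over all genes, and -0.01 in another fit, over those with at least 10 reads in every library. The median of the companions was not computed in that fit, nor without the weakly enriched WT female library.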

How the data were processed

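ChIP-seq was done for Rpb2 and H3K27ac in pools of sorted microglia, and input libraries were not used here. The authors aligned the reads to mm10 with Bowtie2, called and annotated peaks with HOMER, merged the WT and KO peak lists and deposited raw read counts per peak, not normalized. The 10 genes and the gene lists were chosen with earlier results of these data known.

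Counts were tested with edgeR 4.0.16 (quasi-likelihood, TMM, genotype as the only term) over all peaks, or all genes after adding up their peaks, with a mean of at least 4 reads in 1 genotype, and p-values were adjusted by Benjamini-Hochberg over all of them. RPM values use the same scaling. Within-sex log2 ratios add 0.5 RPM. DESeq2 1.42.0, other scalings, filters, a term for sex and leaving out each library were the alternatives. Tested on simulated data, the fit recovered the fold changes on average, but at the spread of the H3K27ac libraries more unchanged than changed peaks passed the threshold. No peak (0) lay past a chromosome end of GRCm38. Every member is named, with the peak nearest its start, its summed reads and any other peak with an unadjusted p under 0.05, and the list genes with such a p, at most the 5 lowest a mark; 5 more for Rpb2 are named after their values were seen. RefSeq promoters matched all 10 genes.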

Additional observations from a re-analysis of the deposited data

Results flagged for a closer look

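Some members moved opposite ways in the pools labelled female and male, with 1 pool per sex and genotype, so these differences were not tested. Log2 ratios of KO to WT for summed Rpb2 were -0.49 in the female and 0.78 in the male pools for Fos, -0.09 and 0.08 for Batf3, and 0.08 and -0.22 for Jun. For summed H3K27ac they were 0.47 in the female and -0.22 in the male pools for Batf3, 0.60 and -0.07 for Junb, and 0.33 and -0.10 for Jund. The female ratio rests on the library labelled WT female in both marks.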

How the results depend on the processing

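Of 52 single results, 34 reversed under no alternative tried, 18 reversed under at least 1, and 22 passed an adjusted p of 0.05 under at least 1. Of the Rpb2 peaks with an unadjusted p under 0.05 (5), 9 were counted with total reads, 0 within 1000 bp of a start and 3 among peaks of both lists. Adjusted (0), 2 passed in DESeq2 (background 3.83%). With at least 10 reads in every library 1 passed (0.151%), and 1 among peaks of both lists (0.09%). Of the H3K27ac peaks (10 unadjusted), 3 were counted with total reads, 5 with at least 10 reads, 2 within 1000 bp and 3 among peaks of both lists, and 1 passed adjusted in DESeq2 (Fosl2, against 0). For Rpb2 gene sums (2 unadjusted), 1 was counted with total reads and 1 when only peaks within 1000 bp were added up. For H3K27ac gene sums (2 unadjusted), 0 were counted with total reads and 1 with the replicate block, and adjusted 1 passed with loess offsets (Fos) and 1 in DESeq2 (Fosb). At the peak with the most reads within 1000 bp, which 9 members had for Rpb2 and 8 for H3K27ac, the median promoter percentile was 80 and 71, against 72.5 and 78.8 at the nearest peak of all 10, and 72.1 and 71 at the nearest peak of the same 9 and 8.

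Leaving out 1 library, the counts ran from 0 to 4 adjusted and from 1 to 9 unadjusted for Rpb2 peaks, from 0 to 15 and from 2 to 22 for H3K27ac peaks, from 0 to 1 and from 1 to 3 for Rpb2 gene sums, and from 0 to 6 and from 0 to 6 for H3K27ac gene sums. The highest adjusted counts came without a WT library, where more of all peaks and genes passed too (8.28% and 7.35% of Rpb2 peaks, 1.53% and 14.8% of H3K27ac peaks).

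Directions reversed as follows, in log2 fold change. With total reads, which move the median of all genes to 0.27 for Rpb2 and 0.63 for H3K27ac, Rpb2 was at 0.11 for Jun at 61 bp, 0.19 for Jdp2 at -99 bp and, summed, 0.10 for Atf4, 0.24 for Batf3 and 0.18 for Jun, and H3K27ac at 0.51 for Batf3 at -110 bp. Jdp2 at -99 bp was at 0.01 among peaks of both lists. Summed Rpb2 was at 0.02 for Batf3 with at least 10 reads and 0.01 for Jun within 1000 bp. H3K27ac was at -0.09 for Jund at 818 bp and -0.05 for summed Batf3 with loess offsets, and -0.30 for Batf3 within 1000 bp. Leaving out 1 library, Rpb2 peaks ranged from -1.18 to 1.89 (Fosb), -0.47 to 0.03 (Jun at 61 bp), -0.65 to 0.49 (Fos at 33 bp), -0.08 to 0.67 (Atf3), -0.03 to 0.47 (Junb at 61 bp) and -0.46 to 0.10 (Jdp2), and sums from -0.12 to 0.08 (Batf3), -0.32 to 0.59 (Fos), -1.11 to 1.95 (Fosb) and -0.20 to 0.03 (Jun). Summed H3K27ac ranged from -0.03 to 0.84 (Atf3), -0.20 to 0.45 (Batf3), -0.01 to 0.34 (Fosl2), -0.04 to 0.57 (Junb) and -0.01 to 0.25 (Jund). The cause was not tested.

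With sex label as a replicate block, 43 genes passed for Rpb2 and 140 for H3K27ac, 0 of them members, Rpb2 at Fos 33 bp was at -0.08, and the adjusted p was 0.055 for summed Jund and 0.0919 for Jund at 1223 bp. Pools with the same sex label did not deviate together (correlations -0.008, -0.005, -0.000 and -0.026). This does not decide whether sex pairs the pools. The WT female library is in doubt by its label for Rpb2 and weakly enriched for H3K27ac. With 2 pools a side, and 1 of 4 libraries per mark in doubt, a difference that missed the threshold is not shown to be absent.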
